A study of Homo sapiens with 2 samples.

Results

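The chemokine and chemokine receptor genes of the series were taken as every gene symbol made of CCL, CXCL, CCR or CXCR and a number, with letters allowed after it, together with IL8 (the older symbol of CXCL8) and CX3CR1. The rule left out 1 receptor symbol. It gave 58 of the 32738 genes in the table, 42 ligands and 16 receptors. The genes were followed through the marker groups of the culture, to see which cells carried mRNA of a ligand and which carried mRNA of a receptor, and through the 4 hashtags.

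The cells were nonadherent cells from day 5 of the endothelial-to-hematopoietic transition (EHT), started from CD34+ cells of the human induced pluripotent stem cell line iPS11. They grew on 4 coating conditions (uncoated, VCAM1, DLL4, and DLL4+VCAM1), and all shared the same medium. VCAM1 is an adhesion protein and DLL4 a ligand of Notch. The 3 wells of a condition were combined, tagged with a hashtag antibody and mixed into a single capture, so the data are 1 library of 1 cell line without replicates, and no p-value was computed. The sources used here do not say which of the hashtags 0252, 0253, 0254 and 0255 marked which coating, so no value below belongs to a named coating. After limits on total UMIs, detected genes and mitochondrial UMIs, 7550 cells were kept of 8488 called for a single hashtag, with a median of 18318.5 unique molecular identifiers (UMIs) and 4197 genes per cell. Levels are UMIs summed over a group of cells per 1000000 UMIs of that group (CPM), with exact Poisson 95% intervals that cover counting error only.

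Chemokines are small secreted proteins that draw cells along a gradient, and their receptors are G protein-coupled receptors at the cell surface. Inflammatory members such as CCL3, CCL4 and the neutrophil-attracting CXCL ligands are made in bursts after a stimulus, often through NF-kB. Homeostatic members such as CXCL12 hold blood progenitors in their niche through CXCR4. Macrophages and megakaryocytes are known sources of chemokines during blood formation.

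Several of the ligands lie side by side. On hg19, IL8 (chromosome 4, 74606236 to 74609433), CXCL6 (74702357 to 74714781) and CXCL1 (74735110 to 74737025) lie on the plus strand, followed by CXCL3 (74902306 to 74904524) and CXCL2 (74962757 to 74964913) on the minus strand. CCL3 (chromosome 17, 34415602 to 34417515) and CCL4 (34431220 to 34433014) are also neighbours. The stretch of 150 bases upstream of the start is shown for 5 of the chromosome 4 ligands, because the cells with CXCL3, CXCL2 and CXCL1 described further on carried these neighbours in unequal amounts and the same letters stand before each. The sequences are RefSeq promoters on GRCh38.p14, 5′ to 3′ on the strand of the gene, and capitals mark a match to GGAANTTCC, an NF-kB-type motif that reads the same on both strands.
IL8 (CXCL8), chr4:73740419-73740568, plus strand: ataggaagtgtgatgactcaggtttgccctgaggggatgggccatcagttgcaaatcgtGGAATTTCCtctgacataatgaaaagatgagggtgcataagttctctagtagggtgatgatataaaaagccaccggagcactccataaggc
CXCL6, chr4:73836528-73836677, plus strand: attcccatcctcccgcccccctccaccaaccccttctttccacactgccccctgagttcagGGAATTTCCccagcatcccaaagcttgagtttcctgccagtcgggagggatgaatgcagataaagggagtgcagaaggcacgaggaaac
CXCL1, chr4:73869243-73869392, plus strand: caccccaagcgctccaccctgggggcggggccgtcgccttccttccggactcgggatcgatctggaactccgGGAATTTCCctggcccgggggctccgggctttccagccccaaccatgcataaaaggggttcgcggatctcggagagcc
CXCL3, chr4:74038690-74038839, minus strand: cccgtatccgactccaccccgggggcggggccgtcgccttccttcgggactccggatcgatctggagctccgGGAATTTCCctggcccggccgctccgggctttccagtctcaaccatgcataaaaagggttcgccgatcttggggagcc
CXCL2, chr4:74099196-74099345, minus strand: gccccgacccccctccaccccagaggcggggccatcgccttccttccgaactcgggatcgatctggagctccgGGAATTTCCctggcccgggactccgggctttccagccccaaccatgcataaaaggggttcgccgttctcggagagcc
The match began 91 bases upstream of the start in IL8, 89 in CXCL6, 78 in CXCL1 and CXCL3, and 77 in CXCL2. In windows from 250 bases before to 50 after the start, 0.965% of 35116 promoters held the motif. Of the 42 members with a promoter in the table it stood in 9, all of them ligands (9 of 30 ligands and 0 of 12 receptors): the 5 above and CXCL5, CXCL10, CXCL11 and CCL1. The motif was searched after the values were seen, and a match is a description of these letters, not of binding.

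Cells were grouped by genes that mark lineages, in gates that exclude each other. The gates held 700 C1Q cells, 59 ELANE cells, 274 EPX cells, 104 PF4/PPBP cells, 82 collagen cells, 729 SPINK2 cells and 2435 CD34/GATA2 cells. A further 13 cells passed more than 1 lineage gate and 3154 passed none. The ungated cells were split, after the data were seen, into 907 cells with MPO, 465 with HLA-DRA, 122 with globin and 1660 others.

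The gates were checked against markers that did not define them. Macrophage markers (8 of 8 with a UMI) summed to 623 CPM in the C1Q gate and to 26.6 to 99.3 CPM in the other gates. The ungated HLA-DRA cells had 192 CPM of the same list and the ungated MPO cells 142 CPM. Neutrophil progenitor markers reached 45229 CPM in the ELANE gate and 13424 CPM in the ungated MPO cells. Eosinophil markers reached 6463 CPM in the EPX gate, and stromal markers 6637 CPM in the collagen gate. The EPX gate also carried neutrophil progenitor markers at 4974 CPM, so it was not of an eosinophil pattern alone. The PF4/PPBP gate carried megakaryocyte markers at 2803 CPM (5 of 6 with a UMI, GP1BB at 0) and erythroid markers at 10255 CPM, so its cells were not of a megakaryocyte pattern alone. The progenitor list did not set the CD34/GATA2 gate apart, with 645 CPM there and 720 CPM in the ELANE gate. The CD34/GATA2 gate also carried erythroid markers at 876 CPM and megakaryocyte markers at 303 CPM, so it was not of a progenitor pattern alone. Endothelial markers (3 of 4 were found) summed to at most 10.1 CPM in any gate.

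Of the 58 members, 29 had at least 30 UMIs over the kept cells (19 ligands and 10 receptors), 21 had between 1 and 29, and 8 had none. The members without a UMI were CXCL9, CCL11, CCL14, CCL16, CCL18, CCL3L3, CCL4L1 and the receptor CCR8. A count of 0 in these cells allows up to 3 UMIs. CCL20 with 28 UMIs lay just under the 30, and CCL25 with 39 UMIs was the lowest above it. Detected receptors were CX3CR1 (6419 UMIs in 2177 cells), CCR6 (2769 in 1442), CCR7 (1434 in 627), CCR1 (1343 in 834), CXCR3 (1012 in 672), CXCR4 (432 in 345), CCR2 (273 in 222), CXCR2 (220 in 203) and CCR10 (177 in 172). The ligands with the most UMIs were CCL4 (2692 in 249 cells), CCL3 (2103 in 292), CXCL3 (1545 in 737), CCL2 (1495 in 398), CXCL2 (814 in 578) and CCL1 (622 in 104).

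A member was called for a gate where it held at least 10 UMIs and at least 4 times the level of the next highest of the 7 gates, with a gate at 0 set at 3 UMIs. By this rule 11 of the 29 members were called, against 5.23% of the 15749 genes with at least 30 UMIs. The C1Q gate had 5 of them (CX3CR1, CCR6, CCR1, CCL3 and CCL4, with 0.864% of all genes called there). The PF4/PPBP gate had 4 (CXCL3, CXCL2, CXCL1 and CCL5, with 0.832% of all genes). The collagen gate had CXCL12 (3.18% of all genes) and the ELANE gate CXCR4 (0.279% of all genes). No member was called in the EPX gate (0.0571%), the SPINK2 gate (0.019%) or the CD34/GATA2 gate, where 0 of all genes were called. The median ratio of the highest to the next gate was 2.79 over the 29 members and 1.16 over all genes tested. A member that reached 30 UMIs through the gate where it was high had to differ between gates, so these counts are a description. In the ELANE gate 3 UMIs correspond to 4.07 CPM, which kept members with low levels elsewhere from being called. With the groups of the split ungated cells entered beside the gates, CXCL12 alone was called. This count stands without the share of all genes called at that setting, and describes the members only.

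The receptors CCR6, CX3CR1, CXCR3, CCR1 and CCR2 had their highest levels in the C1Q cells or in the ungated HLA-DRA cells. These groups made up 15.4% of the kept cells and held 57.3% of the UMIs of CCR6, 49.2% of those of CX3CR1, 46.8% for CXCR3, 37.3% for CCR1 and 33.3% for CCR2. CX3CR1, the receptor of fractalkine on monocytes and macrophages, was at 203 CPM (95% interval 194 to 212) in the C1Q gate. It was at 159 CPM (150 to 169) in the ungated HLA-DRA cells and at 58.7 CPM in the other ungated cells. The other ungated cells held 1800 UMIs of CX3CR1, against 1977 in the C1Q gate. Its level was 29.4 CPM in the SPINK2 gate, 29.1 in the ungated MPO cells and 8.21 in the CD34/GATA2 gate. A UMI of CX3CR1 was found in 71.1% of C1Q cells at a median depth of 12676 UMIs, and in 6.20% of EPX cells at a median depth of 17470.5 UMIs. After thinning every cell to 5000 UMIs the shares were 52.1% and 3.32%. The C1Q cells had the higher share although they were the shallower cells.

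CCR6, the receptor of CCL20, followed the same groups, with 90.7 CPM (84.8 to 96.9) in the C1Q gate and 94.7 CPM (87.8 to 101.97) in the ungated HLA-DRA cells. The other ungated cells were at 21.7 CPM, from 665 UMIs. The next gates, collagen and SPINK2, were at 12.0 and 11.6 CPM, and the collagen gate was at 7.34 CPM without its highest cell. The intervals of the C1Q and HLA-DRA cells overlapped, so these groups were not told apart by CCR6. CCR1, a receptor of CCL3 and CCL5, was at 41.4 CPM (37.5 to 45.7) in the C1Q gate. It was at 17.7 in the ungated MPO cells, 13.3 in the other ungated cells and 13.2 in the HLA-DRA cells. The other ungated cells held 409 of its UMIs and the C1Q gate 403. CCR1 thus separated the C1Q cells from the HLA-DRA cells, and its intervals did not overlap.

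CCR2 and CXCR3 had fewer UMIs than these receptors. CCR2, the receptor of CCL2 on monocytes, was at 5.96 CPM in the C1Q gate, 4.44 in the HLA-DRA cells and 4.27 in the ungated MPO cells. The MPO cells held 73 of its UMIs, the other ungated cells 70 and the C1Q gate 58. CXCR3, the receptor of the interferon-induced CXCL9, CXCL10 and CXCL11, was higher in the HLA-DRA cells (37.3 CPM) than in the C1Q gate (20.2 CPM). It was at 10.6 CPM in the other ungated cells, from 326 UMIs, and at 7.25 CPM in the SPINK2 gate.

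These receptors shared cells. CX3CR1 was found in 863 of the 1442 cells with CCR6 (59.8%), against 28.8% of all kept cells. It was found in 166 of the 222 cells with CCR2 (74.8%) and in 468 of the 834 cells with CCR1 (56.1%). CCR6 was found in 371 of the 672 cells with CXCR3 (55.2%), against 19.1% of all kept cells. Cells with more UMIs detect more of every gene, and these shares were not thinned. The C1Q and ungated HLA-DRA cells held 813 of the 2177 cells with CX3CR1 and 682 of the 1442 cells with CCR6. The shares were not taken within a group of cells, so overlap beyond the shared groups was not tested.

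CCR7, the receptor that guides lymphocytes and dendritic cells to lymphoid tissue through CCL19 and CCL21, was at 36.5 CPM (33.4 to 39.7) in the SPINK2 gate and 36.9 CPM (32.6 to 41.5) in the ungated HLA-DRA cells. The C1Q gate was at 14.2 CPM, the CD34/GATA2 gate at 2.57 CPM and the collagen gate had no UMI. The other ungated cells were at 10.1 CPM, from 309 UMIs, against 274 UMIs in the HLA-DRA cells. The intervals of the SPINK2 and HLA-DRA cells overlapped, while the C1Q cells lay below both. SPINK2 marks early blood progenitors. The list of T or NK markers summed to 344 CPM in the SPINK2 gate and 289 CPM in the HLA-DRA cells. It summed to 272 CPM in the other ungated cells and 268 CPM in the C1Q gate. The part of these markers in the CCR7 level was not tested. Of the 133 cells with at least 3 UMIs of CCR7, 59 were in the SPINK2 gate, 29 were HLA-DRA cells, 24 were other ungated cells and 13 were C1Q cells. Ranked by the ratio of levels after adding 5 CPM to both, SOX2, a stem cell transcription factor, came first in these cells, with 70.0 CPM in them and 2.28 CPM in the others. Without the added CPM the ratio was higher for CALB2 (19.4 and 0.572 CPM).

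CXCR4 and CXCR2 had their highest levels in the ELANE gate. CXCR4, the receptor that retains progenitors and neutrophils in bone marrow, was at 21.7 CPM (12.4 to 35.3) in the ELANE gate, from 16 UMIs, and at 13.7 CPM (12.0 to 15.6) in the ungated MPO cells. The C1Q gate was at 3.60 CPM, the SPINK2 gate at 1.45 and the CD34/GATA2 gate at 0.605 CPM (0.411 to 0.858). The CD34/GATA2 cells were thus the lowest of the gates with more than 1 UMI of CXCR4. The ungated MPO cells held 54.4% of all its UMIs. CXCR2, which takes the neutrophil-attracting CXCL ligands, was at 10.9 CPM in the ELANE gate from 8 UMIs, 3.86 in the MPO cells, 3.66 in the EPX gate and 1.58 in the CD34/GATA2 gate. CXCR2 was not called for a gate, and the CD34/GATA2 cells held 81 of its 220 UMIs, more than the 66 of the MPO cells. CXCR1, its neighbour on chromosome 2, had 10 UMIs in all. CCR10 lay between 0.407 and 2.42 CPM in every gate where it had a UMI.

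The inflammatory CCL ligands came from few cells with many UMIs each. CCL4 and CCL3, which draw monocytes and lymphocytes, were at 82.3 and 80.3 CPM in the C1Q gate and at 87.4 and 57.4 CPM in the ungated HLA-DRA cells. Every other gate was at 4.07 CPM or lower for both. The other ungated cells were at 31.8 and 20.9 CPM, and at 26.0 and 16.5 CPM without the highest cell of each gene. They held 974 and 641 UMIs, against 801 and 781 in the C1Q gate. The ungated MPO cells were at 8.30 and 9.76 CPM. A UMI of CCL4 was found in 9.14% of C1Q cells, and a UMI of CX3CR1, as given above, in 71.1% of them. The cell with the most CCL4 held 230 UMIs of it, and the next ones 177 and 111. Without the highest cell of each gene, the HLA-DRA cells were at 56.6 CPM for CCL4, below the C1Q gate, and at 34.1 CPM for CCL3, and the MPO cells were at 5.97 CPM for CCL3.

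The plot of cumulative shares ranks the cells by each gene in turn. The 10 highest cells held 36.3% of the UMIs of CCL3, 30.0% of those of CCL2, the monocyte attractant, and 8.61% of those of CXCL3. Among receptors the 10 highest cells held 6.25% for CCR1 and 3.72% for CCR6. The curves of the plotted CCL ligands therefore rose at fewer cells than those of the plotted receptors. Receptors and ligands were not set apart as a whole. The 10 highest cells held 16.2% for CCR7 and 12.8% for CCR2, which were not plotted, and 6.63% for the ligand CXCL2. Among the members with at least 30 UMIs, CXCL10, an interferon-induced ligand of CXCR3, had the largest share in its 10 highest cells. These cells held 72.5% of its 189 UMIs, with 59 UMIs in the highest cell. Leaving out the 5 cells with the most UMIs of each member kept CCL3 and CCL4 called for the C1Q gate.

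The cells high in these ligands overlapped. CCL3 and CCL4 were found together in 107 cells, which were 36.6% of the cells with CCL3 and 43.0% of those with CCL4, against 3.30% of all cells with CCL4 and 3.87% with CCL3. Of the 89 cells with at least 3 UMIs of CCL4, 39 were in the C1Q gate, 25 were other ungated cells, 11 were HLA-DRA cells and 9 were MPO cells. Their median depth was 17166 UMIs, below that of all kept cells. By the same ratio with 5 CPM added, the first genes in these 89 cells were CCL3 (1065 CPM in them and 3.01 in the others), CCL2 (302 and 7.24), the interleukin-1 antagonist IL1RN (388 and 15.6), the early response factor ATF3 (117 and 3.42) and CCL1 (113 and 3.16). A UMI was found in 77 of the 89 cells for CCL3, 42 for CCL2, 47 for IL1RN, 35 for ATF3 and 13 for CCL1. SPP1 had the largest difference (2600 and 249 CPM), and without the added CPM the ratio was higher for CSF1 (65.3 and 0.783 CPM) than for CCL2. These genes were named after their values were seen. CCL3L1 and CCL4L2, near copies of CCL3 and CCL4, had 6 and 3 UMIs, and reads shared between the copies may have been dropped or split, so their counts are uncertain.

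CCL2 and CCL1 had UMIs in further groups, and single cells weighed on their levels. CCL2 was at 34.9 CPM in the C1Q gate, 17.5 in the other ungated cells, 13.2 in the HLA-DRA cells, 11.2 in the collagen gate and 4.37 in the CD34/GATA2 gate. Without the highest cell of each of these groups, the levels of CCL2 were 26.1, 13.5, 7.96, 9.65 and 3.84 CPM in the same order. A single C1Q cell held 87 of the 340 UMIs of that gate. Of the 113 cells with at least 3 UMIs of CCL2, 41 were other ungated cells and 24 were C1Q cells. CCL1, a T cell attractant, was at 30.9 CPM in the HLA-DRA cells, 10.9 in the C1Q gate and 6.36 in the SPINK2 gate, with no UMI in the ELANE, PF4/PPBP and collagen gates. A single HLA-DRA cell held 98 of the 230 UMIs of CCL1 in that group, and without the highest cell of each group the levels were 17.8, 7.20 and 4.01 CPM. The other ungated cells were at 4.27 CPM of CCL1, from 131 UMIs, and at 3.36 CPM without their highest cell. Of the 42 cells with at least 3 UMIs of CCL1, 13 were other ungated cells and 9 were HLA-DRA cells.

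The PF4/PPBP cells carried the CXCL ligands of neutrophils. CXCL3 was at 199 CPM (179 to 219) in this gate, at 79.4 CPM in the ungated globin cells, at 13.4 CPM (12.4 to 14.4) in the CD34/GATA2 gate and at 1.44 CPM in the C1Q gate. A UMI of it was found in 87.5% of the PF4/PPBP cells and in 1.43% of the C1Q cells. After thinning the shares were 60.4% and 0.586%. CXCL2 followed with 67.6 CPM in the PF4/PPBP gate, 31.4 in the globin cells and 7.45 in the CD34/GATA2 gate. Both ligands thus stood in the same order over these groups.

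**Figure D1:**
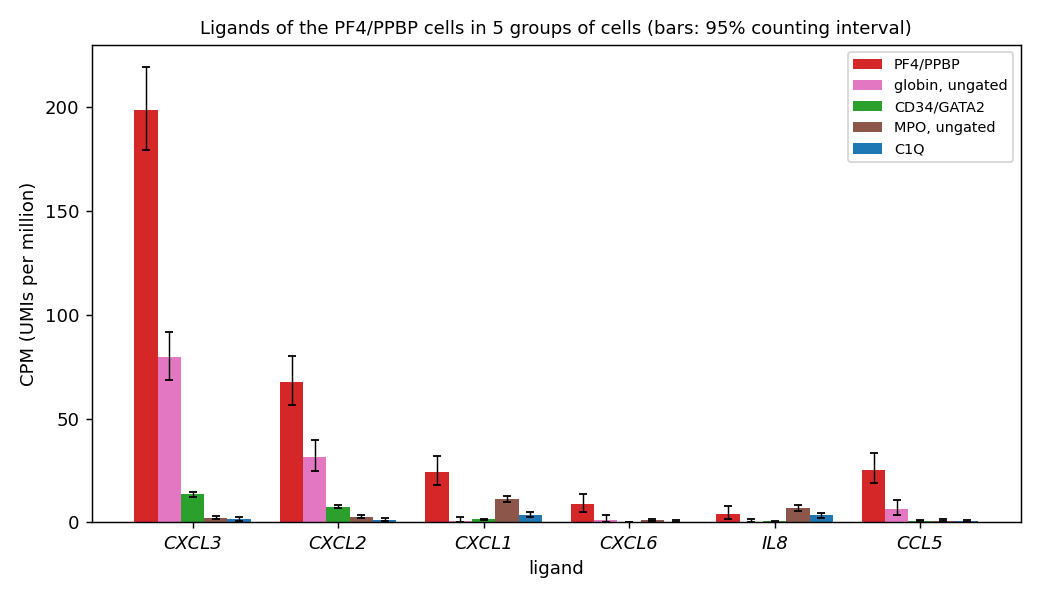
Level in CPM (vertical axis, from 0) of 6 ligands (horizontal axis) in 5 groups of cells (colours), with bars for the 95% counting interval. CXCL3 and CXCL2 were high in the PF4/PPBP and globin cells, while CXCL1 and IL8 were also present in the ungated MPO cells, at 11.1 and 6.78 CPM.

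CXCL1 differed from its neighbours. It was at 24.2 CPM in the PF4/PPBP gate and 11.1 CPM in the ungated MPO cells, but at 0.425 CPM in the globin cells, where CXCL3 was at 79.4 CPM. IL8, the classical neutrophil attractant, was at 6.78 CPM in the MPO cells, 4.03 in the PF4/PPBP gate and 3.29 in the C1Q gate (1.65 without its highest cell). CXCL6 was at 8.57 CPM in the PF4/PPBP gate from 17 UMIs, of which 10 came from 1 cell, and at 3.56 CPM without that cell. CCL5, a T cell and monocyte attractant stored in platelets, was at 25.2 CPM in the PF4/PPBP gate, 6.37 in the globin cells and at most 0.818 in the other groups.

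CXCL3 and CXCL2 were found together in 248 cells, 33.6% of the cells with CXCL3 and 42.9% of those with CXCL2. The 177 cells with at least 3 UMIs of CXCL3 comprised 71 CD34/GATA2 cells, 64 PF4/PPBP cells and 25 globin cells. Their leading genes included the platelet genes PPBP and THBS1 (589 CPM in them and 20.3 in the others) and TUBB1 (177 and 4.89), next to the globin HBD (2020 and 113). Thus CXCL3 was also carried by CD34/GATA2 cells, with 44.4% of its UMIs. These cells were 32.3% of the kept cells, and their level of 13.4 CPM compares with 10.9 CPM over all kept cells. The gate genes PPBP (3424 CPM) and PF4 (34.3 CPM) are themselves CXC chemokines, but they define the gate and are no finding.

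CXCL12, the ligand of CXCR4 made by stromal cells, had most of its UMIs in the small collagen gate. The collagen gate was at 90.1 CPM (74.2 to 108), and its 82 cells held 71.1% of all UMIs of CXCL12. The gate was 1.09% of the kept cells. The C1Q, ELANE and PF4/PPBP gates and the HLA-DRA cells had no UMI, which allows up to 0.308 CPM in the C1Q gate, and the CD34/GATA2 gate was at 0.292 CPM. A UMI was found in 41 of the 82 collagen cells and in 13 of the 2435 CD34/GATA2 cells (0.534%).

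The other ligands were rare. CXCL10 was at 8.78 CPM in the SPINK2 gate and at most 0.925 CPM in the other gates, and 1 cell held 59 of its 127 UMIs in the SPINK2 gate, which was at 4.71 CPM without that cell. Of its 14 cells with at least 3 UMIs, 7 were SPINK2 cells. The leading genes of the 14 cells were MMP9 (a UMI in 10 of them), CCL1 (in 4), LTA (in 2), the interferon-induced IFIT3 (in 6) and LTB (in 13). CCL22, a ligand of CCR4 made by dendritic cells and macrophages, was at 8.22 CPM in the C1Q gate and 9.01 in the HLA-DRA cells. The other ungated cells were at 3.85 CPM, from 118 UMIs, and at 2.84 CPM without their highest cell. They were 12 of the 24 cells with at least 3 UMIs of CCL22. In the HLA-DRA cells 46 of the 67 UMIs of CCL22 came from 1 cell, and the level was 2.83 CPM without it. CXCL16, a scavenger ligand of macrophages, was at 5.24 CPM in the C1Q gate and 1.61 in the HLA-DRA cells. CCL17 was at 2.06 CPM in the C1Q gate, where 1 cell held 11 of its 20 UMIs, and at 0.927 CPM without that cell. CCL23 had 84 of its 144 UMIs in the CD34/GATA2 gate (1.64 CPM) and was at 3.03 CPM in the PF4/PPBP gate. CCL28, CXCL14 and CCL25 did not exceed 2.97 CPM in any group.

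Between hashtags, a member was called where the highest hashtag had at least 1.5 times the level of the lowest and their intervals lay apart. This held for 22 of the 29 members, against 12.9% of the 15749 genes tested. The highest hashtag was 0253 for 13 of them (3.16% of all genes), 0255 for 5 (4.72%), 0252 for 4 (3.37%) and 0254 for none (1.61%). In 10 of the 22 the highest hashtag was 0252 or 0253 and the lowest 0254 or 0255 (5.54% of all genes), and in 4 the other way round (5.96% of all genes). The gates themselves were uneven, with 44, 44, 6 and 10 PF4/PPBP cells, 31, 23, 3 and 2 ELANE cells, 9, 9, 14 and 50 collagen cells and 363, 379, 94 and 71 ungated MPO cells in hashtags 0252, 0253, 0254 and 0255. With each hashtag weighted to the same gate shares, 19 members were called (8.55% of all genes), and 17 (7.24%) with the ungated cells split as well. Each hashtag is 1 pool of wells, so a difference between hashtags cannot be told apart from a difference between pools.

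CX3CR1, CCR2, CXCR3 and CCR6 differed between hashtags within the C1Q gate. In the C1Q gate, CX3CR1 was at 303 CPM (284 to 324) in hashtag 0252, 190 (174 to 207) in 0253, 157 (142 to 173) in 0254 and 124 (108 to 142) in 0255. Hashtag 0252 was the highest and 0255 the lowest, and of the neighbours in this order only 0254 and 0255 had overlapping intervals. The ungated HLA-DRA cells gave 280, 145, 135 and 93.3 CPM in the same order, and the ungated MPO cells 37.1, 26.1, 20.9 and 19.2 CPM. In the SPINK2 gate, hashtag 0252 was at 57.9 CPM and the others between 11.1 and 21.4 CPM.

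CCR2 was split between the hashtags within the C1Q gate. It had 32 UMIs in hashtag 0252 (11.2 CPM, 7.65 to 15.8) and 24 in 0253 (9.23 CPM, 5.91 to 13.7), with 1 UMI each in 0254 and 0255 (0.390 and 0.587 CPM). The first pair of hashtags and the second did not overlap. Over all kept cells CCR2 was at 3.14, 2.70, 0.605 and 0.736 CPM.

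In the C1Q gate CXCR3 took the opposite order. It was at 6.99 CPM (4.27 to 10.8) in hashtag 0252, 16.5 (12.0 to 22.3) in 0253, 27.3 (21.3 to 34.5) in 0254 and 37.6 (28.9 to 48.0) in 0255. In the HLA-DRA cells it was at 23.8, 17.4, 39.4 and 60.4 CPM, again highest in 0255. The ungated MPO cells and the SPINK2 gate did not show this order. In the MPO cells CXCR3 was at 3.51, 2.65, 1.57 and 0.685 CPM, from 23, 19, 3 and 1 UMIs. In the SPINK2 gate it was at 9.57, 4.33, 7.18 and 6.597 CPM. The intervals of all hashtags overlapped within each of these groups, so the hashtags were not told apart there by CXCR3.

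CCR6 differed in its order between groups of cells. It was at 88.8, 65.8, 106 and 110 CPM in the C1Q gate, where the intervals of 0252 and 0254 overlapped, and at 76.5, 64.3, 109 and 118 CPM in the HLA-DRA cells. In the MPO cells it was at 14.0, 9.47, 6.79 and 2.74 CPM, with 0252 the highest, and in the SPINK2 gate at 12.1, 6.73, 13.4 and 11.8 CPM. CCR7 in the SPINK2 gate was at 48.4, 52.9, 28.7 and 25.0 CPM, but 1 cell held 51 of the 110 UMIs of hashtag 0253, which was at 28.6 CPM without it. In the C1Q gate CCR7 was at 9.09, 8.08, 24.9 and 15.8 CPM, and hashtag 0254 was at 11.4 CPM without its highest cell.

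The CXCL ligands of the PF4/PPBP cells differed by hashtag over all cells. CXCL3 was at 16.01, 14.64, 5.16 and 5.47 CPM in hashtags 0252, 0253, 0254 and 0255. Within the PF4/PPBP gate it was at 227, 165, 167 and 243 CPM, so the order over all cells did not hold there, and the uneven number of PF4/PPBP cells moved with it. Hashtag 0255 had 10 cells in this gate, 1 of which held 17 of its 43 UMIs, and was at 168 CPM without that cell. In the CD34/GATA2 gate hashtags 0252 and 0253 again lay above 0254 and 0255. CXCL3 was at 18.1, 18.5, 6.92 and 6.96 CPM there, and CXCL2 at 11.0, 9.82, 3.68 and 3.25 CPM. Weighted to the same gate shares, CXCL3 was at 14.3, 13.1, 6.63 and 7.53 CPM.

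Other members had a different order within the group of cells that held most of their UMIs. CXCL12 was at 0.619, 0.650, 1.35 and 2.17 CPM over all cells, but at 75.5, 94.2, 116 and 80.0 CPM within the collagen gate. The collagen cells of hashtag 0253 had 15 UMIs, 11 of them in 1 cell, and were at 27.6 CPM without it. CXCR4 was at 3.34, 4.52, 1.90 and 2.00 CPM over all cells, and at 12.66, 15.04, 14.11 and 11.64 CPM within the ungated MPO cells. In both, the cells that carried the gene differed in number between hashtags. For CXCR4 the level within the MPO cells varied less than that over all cells, and for CXCL12 this rested on the 1 cell of hashtag 0253. Weighted to the same gate shares, CXCR4 was at 3.42, 4.26, 1.98 and 1.87 CPM, so 0252 and 0253 stayed above 0254 and 0255. With the ungated cells split in the weighting as well, it was at 2.74, 3.68, 2.73 and 2.56 CPM.

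The concentrated ligands were uneven over the hashtags. CXCL10 (16.4) and CCL1 (9.52) had the largest ratios of the highest to the lowest hashtag among the members, followed by IL8 (8.80), CCL22 (5.76) and CCR2 (5.19), while CCL4 (3.83) and CCL3 (3.37) lay lower. CCL4 was at 7.18, 27.5, 26.5 and 14.9 CPM and CCL3 at 7.10, 23.9, 17.5 and 10.1 CPM over the hashtags. CCL1 was at 0.792, 7.54, 2.65 and 7.29 CPM and CXCL10 at 0.297, 1.59, 0.231 and 3.79 CPM. Without the highest cell, hashtag 0253 was at 4.99 CPM for CCL1 and hashtag 0255 at 1.72 CPM for CXCL10. Of the 89 cells with at least 3 UMIs of CCL4, 17 were from hashtag 0252, 29 from 0253, 28 from 0254 and 15 from 0255. Where a few cells hold most UMIs, the Poisson interval is too narrow for the spread between cells. With a mitochondrial limit of 10%, CCL4 was higher in hashtag 0252 than in 0253.

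The known ligand and receptor pairs were set side by side, as summed UMIs of the kept cells, for 22 pairs. UMIs of different genes are detected with different efficiency, so a ligand and its receptor were not compared in level.

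For some receptors the ligand was nearly missing from these nonadherent cells. CX3CL1 had 15 UMIs and CX3CR1 6419, CCL20 had 28 and CCR6 2769, and CCL19 and CCL21 had 17 and 13 against 1434 of CCR7. The reverse held for CCL1, with 622 UMIs against 0 of CCR8, for CCL22, with 339 against 4 of CCR4, and for CXCL16, with 83 against 1 of CXCR6. In other pairs both sides were present. CXCL12 had 159 UMIs and CXCR4 432. Of the 78 cells with CXCL12, 2 also had CXCR4, which was found in 4.57% of all kept cells. So small a count does not tell whether these genes kept to different cells. CCR1 was found in 119 of the 292 cells with CCL3, against 11.0% of all kept cells. This comparison was not made within a group of cells. Adherent cells of the wells were not sampled, and mRNA does not report protein or signalling.

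Genes around the members were taken from lists. Of 22 genes of signalling below chemokine receptors, all were tested, 1 was called for a gate and 3 between hashtags. Over all genes tested, 5.23% were called for a gate and 12.9% between hashtags, and the counts of this list lay near these shares. The gene called for a gate was RGS18, an inhibitor of G protein signalling in platelets, at 184 CPM in the PF4/PPBP gate. GNAI2, the G protein subunit most chemokine receptors use, was between 455 and 730 CPM in the gates. Of 15 inflammatory ligands and NF-kB targets, 11 were tested. Of these, 1 was called for a gate (IL1RN, at 55.9 CPM in the C1Q gate) and 7 between hashtags, against the same shares of all genes. IL1RN was at 7.74, 42.1, 14.4 and 13.0 CPM in hashtags 0252, 0253, 0254 and 0255, and like CCL3 and CCL2 it was highest in 0253. Of the related chemokine genes outside the rule, 15 of 17 were found and 11 tested. Of these, CD74 (2784 CPM) and CMKLR1 (34.1 CPM) were called for the C1Q gate, against 0.864% of all genes. MIF was between 106 and 264 CPM in every gate.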

How the data were processed

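Reads were aligned by the authors with Cell Ranger 6.0.1 (reference hg19), and the deposited files hold raw counts of UMIs per gene and barcode, without normalization, for 10836 barcodes, together with a hashtag call for every barcode. The hashtag library holds the same barcodes as the mRNA library. Barcodes called for 1 hashtag were kept with at most 36000 UMIs, 6000 genes and 18% mitochondrial UMIs, the limits given in the methods of the study. The kept cells held 142110950 UMIs. Hashtag doublets were left out, and doublets called by Scrublet (63 of the kept cells) were removed in an alternative only.

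A cell entered a lineage gate by the UMIs of the gate genes per 10000 UMIs, with at least 5 for C1QA, C1QB and C1QC, 10 for ELANE, 3 for EPX, 5 for PF4 and PPBP and 10 for COL1A1, COL1A2 and COL3A1, or 5 times the median of the kept cells where that was higher. Of the remaining cells, at least 2 of SPINK2 per 10000 UMIs, and then 1 UMI each of CD34 and GATA2, set the other gates. The ungated cells were split by at least 10 of MPO, 5 of HLA-DRA or 10 of globin genes.

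Levels carry exact Poisson and shares exact Clopper-Pearson 95% intervals. PCR duplicates were collapsed by UMIs, and both intervals cover counting error only. For weighted hashtags a gamma interval for weighted sums was used. Thinning drew 5000 UMIs per cell with a fixed seed and left out shallower cells (7482 of 7550 cells were used). Members with at least 30 UMIs were described with values in gates and hashtags, except 1 receptor that enters the counts but is not reported here. The rule, the gates and the gene lists were chosen with earlier results of these data known.

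Gene positions came from a GENCODE annotation of GRCh37 (49 members matched by identifier, 9 by symbol). CXCL6, CCR6 and CCR10 overlap another annotated gene on the same strand, and their counts are uncertain to that extent. Promoters came from RefSeq on GRCh38.p14. Computation used scanpy 1.11.5, matplotlib 3.10.9, pandas 2.3.3, scipy 1.17.1 and numpy 2.4.6 under Python 3.11.15. The alternatives were other limits on cells, other gate thresholds, cells counted in several gates, means over cells, totals without mitochondrial UMIs, the 5 highest cells left out, and weighting of the hashtags. Splitting the ungated cells, in gates and in the weighting, was chosen after seeing the data, as was leaving out the highest cell of a group.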

Additional observations from a re-analysis of the deposited data

Results flagged for a closer look

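Signals of the members also stood in barcodes that no comparison used. In the 809 barcodes called negative for every hashtag that passed the same limits as the kept cells, 22 members had more than 3 UMIs, at a median depth of 15601 UMIs. CX3CR1 was at 9.24 CPM (7.65 to 11.1) in them and at 45.2 CPM in the kept cells, CCR6 at 3.13 and 19.5 CPM, and CCL4 at 2.51 and 18.9 CPM. CXCR2 was at 2.04 CPM (1.33 to 2.98) and 1.55 CPM, and CCL23 at 1.80 and 1.01 CPM. CX3CR1, CCR6 and CCL4 thus stood lower in the negative barcodes, but so did others, among them CXCR4 (0.862 and 3.04 CPM), CXCL3 (5.88 and 10.9) and CXCL1 (0.862 and 2.91). CXCR2, CCL23, CCL28 and CCL17 were not lower, and the interval of CXCR2 included its level in the kept cells.

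In the 1339 barcodes called as hashtag doublets, 38 members had more than 3 UMIs, at a median depth of 27367 UMIs. CXCL12 was at 5.52 CPM (4.82 to 6.30) in them and at 1.12 CPM in the kept cells, while CXCR4 was at 2.94 and 3.04 CPM and CX3CR1 at 38.7 and 45.2 CPM. Of these, CXCL12 alone was higher in the doublets. Other members were higher there too, among them CXCL10 (1.91 and 1.33 CPM), CCL5 (1.51 and 0.978), CXCL14 (0.954 and 0.514) and CCL25 (0.627 and 0.274). CCL4 (14.9 and 18.9 CPM) and CCL3 (10.6 and 14.8) were lower.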

How the results depend on the processing

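With a mitochondrial limit of 10%, which left 736 of the 7550 cells, 17 rather than 29 members had at least 30 UMIs. Of these 17, 6 were called for a gate, against 11 of 29, and 13 between hashtags, against 22 of 29. The counts thus rest on different numbers of members tested. The same limit reversed the log2 ratio of the hashtags that were highest and lowest at the limit of 18% for CXCL1 (-0.56), CXCL14 (-0.87), CCL5 (-0.37) and CCL4 (-0.82). Leaving out the 5 cells with the most UMIs reversed it for CXCL14 (-0.51). With the ungated cells split, 1 member (CXCL12) was called for a gate, and the log2 ratio of the C1Q gate to the next group turned negative for CCR6 (-0.062) and CCL4 (-0.087), since the HLA-DRA cells then counted as a group. As a mean over cells of the CPM of each cell, 11 of the 29 members were called between hashtags, and the cause was not tested. The other alternatives gave 9 to 12 members called for a gate and 17 to 23 between hashtags. Apart from the weighted hashtags, these counts stand without the share of all genes called at each setting, and describe the members only. Leaving out the highest cell of a group moved 19 levels within the groups by more than 1.5 times and out of their counting interval. Thinning to 5000 UMIs moved the share of cells with a UMI for 26 of 29 members.

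No paired analysis was possible because the data are 1 library without replicates. The small ELANE, collagen and PF4/PPBP gates limit what can be seen of rare members, and the intervals hold no spread between cultures.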
